A study of Mus musculus with 12 samples.

Results

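The anti-Rtl1 miRs are the mature miRs cut from 5 hairpins that are transcribed from the maternal chromosome on the strand opposite to Rtl1, a retrotransposon-derived gene of the imprinted Dlk1-Dio3 domain. Both arms of miR-127, miR-136, miR-431, miR-433 and miR-434 were taken by name, with earlier results of these data known. This gave 10 miRs of the 1927 listed in the miR-seq table, of which 682 had any count. miR-seq was performed on E18.5 livers of female fetuses, 5 wild-type (WT) and 7 Mir483Pat-KO, with 1 library per fetus. Mir483Pat-KO fetuses inherited from the father a germline deletion of Mir483, a miR gene within Igf2 that is itself imprinted, so the allele is lost in all cells and not only in hepatocytes. The mutant line came from 2 embryonic stem cell clones of C57BL/6N origin and was kept by crosses with C57BL/6J, and the fetuses of both genotypes were described as littermates.

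Rtl1 is expressed from the paternal chromosome and is needed in the fetal capillaries of the placenta, whereas the miRs that lie antisense to it are made from the maternal chromosome as part of a long non-coding transcription unit that also includes Meg3, Rian and Mirg. Because each of these miRs is cut from the exact antisense of the Rtl1 mRNA, it pairs with that mRNA along its whole length and can direct its cleavage, in addition to the usual pairing of a miR seed, bases 2 to 8, with other mRNAs. A hairpin yields up to 2 mature miRs, the 5p and the 3p arm, and usually the arm loaded into Argonaute is kept while the other is degraded.

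In the GRCm38 annotation of GENCODE, Rtl1 is on the minus strand at chr12:109589193-109600330 and its single coding segment is at chr12:109590172-109595403. The 5 hairpins are on the plus strand in the order miR-431 (chr12:109590447-109590537), miR-433 (chr12:109591715-109591838), miR-127 (chr12:109592846-109592915), miR-434 (chr12:109594506-109594599) and miR-136 (chr12:109595327-109595388). They span 4942 bases, and all 5 lie within the Rtl1 coding segment, so they are exonic with respect to Rtl1 and in no UTR of it. The reverse complement of each of the 10 mature sequences was found in full in the Rtl1 transcript. All 10 were matched by name in RefSeq (GRCm38.p6) and are shown because the seed sets which other mRNAs a miR can pair with. The seed is in capitals, 5′ to 3′:
mmu-miR-431-5p: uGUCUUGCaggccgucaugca
mmu-miR-431-3p: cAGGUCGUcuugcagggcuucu
mmu-miR-433-5p: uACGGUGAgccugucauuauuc
mmu-miR-433-3p: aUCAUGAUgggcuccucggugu
mmu-miR-127-5p: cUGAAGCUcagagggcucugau
mmu-miR-127-3p: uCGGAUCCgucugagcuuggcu
mmu-miR-434-5p: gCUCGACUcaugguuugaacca
mmu-miR-434-3p: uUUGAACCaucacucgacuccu
mmu-miR-136-5p: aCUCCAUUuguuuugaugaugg
mmu-miR-136-3p: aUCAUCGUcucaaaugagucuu

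The 10 seeds all differ, and none is shared with another mouse mature miR in the RefSeq table. The hairpins of miR-127, the most abundant, and miR-136 are shown from RefSeq with both mature arms in capitals. Among the anti-Rtl1 hairpins, miR-136 is the one whose arm ratio was called between genotypes, a call lost in several settings given below. On GRCm38 plus strand they are at chr12:109592846-109592915 and chr12:109595327-109595388:
mmu-miR-127: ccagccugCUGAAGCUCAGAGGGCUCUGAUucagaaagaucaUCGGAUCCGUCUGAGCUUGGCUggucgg
mmu-miR-136: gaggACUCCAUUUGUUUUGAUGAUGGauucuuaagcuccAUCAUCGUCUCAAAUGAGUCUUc

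Total counts were 658665 to 1211160 per library, and 3 counts, taken as the lowest level that can be told from 0, were 2.48 to 4.55 CPM. All 10 miRs passed the filter on low counts in the table as a whole, which kept 388 miRs, and the lowest count of any of them in any library was 86, for miR-433-5p. The deleted gene followed the labels: miR-483-3p was at 985 to 1238 CPM (counts scaled to the TMM-adjusted library size) in WT and 0 to 25.0 CPM in Mir483Pat-KO. miR-122-5p, the miR that marks hepatocytes, was among the 2 most abundant miRs, and the summed level of 4 hepatocyte miRs was 173957 to 202014 CPM in WT and 165731 to 214923 CPM in Mir483Pat-KO. Library index numbers 37 to 41 belong to WT and 42 to 48 to Mir483Pat-KO, so genotype and index order cannot be told apart between groups.

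The anti-Rtl1 miRs were a large part of the miR counts of fetal liver. The 10 together took between 18.51% and 20.4% of each WT library's counts (19.7% ± 0.784, SD, n = 5) and between 19.4% and 21.7% in each mutant library (20.9% ± 0.905, SD, n = 7). The exact binomial 95% interval of the lowest of these shares was 18.4% to 18.6%, an interval for counting error alone, which leaves out what PCR adds when copies of a molecule are read repeatedly. A single miR made up most of the sum, with miR-127-3p accounting for 76.3% to 78.7% of the counts of the 10. The hairpins differed by orders of magnitude although they are neighbours. Over the 12 libraries both arms together took 15.8% ± 0.718 (SD) of the counts for miR-127, 2.81% ± 0.301 for miR-136, 1.24% ± 0.0820 for miR-434, 0.475% ± 0.0364 for miR-431 and 0.0788% ± 0.00819 for miR-433. In bulk liver, fewer cells of a type and less RNA per cell cannot be told apart. The mature miRs are 21 to 22 bases long, so counts were compared between them without a correction for length. How well the libraries capture each sequence was not measured, so differences between miRs or arms are differences in counts.

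**Figure D1:**
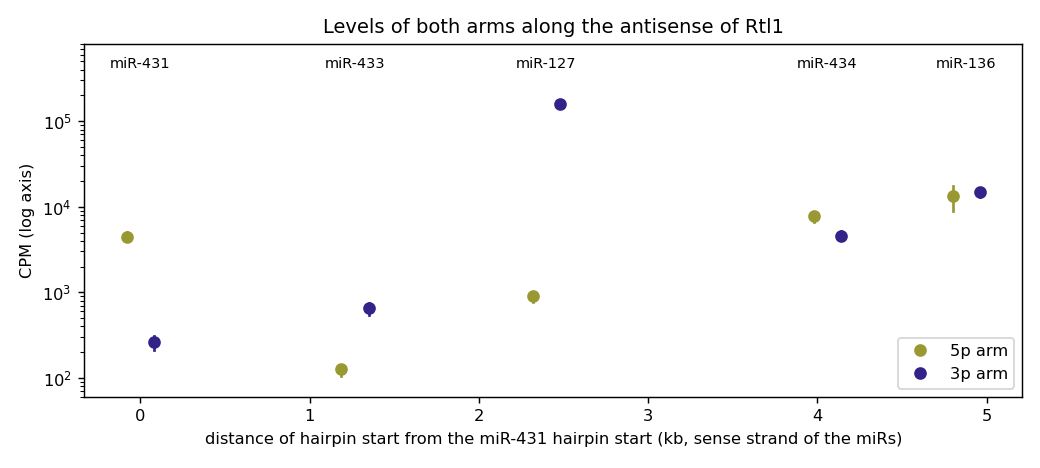
Level of the 5p and 3p arm of each hairpin, in CPM on a log axis, against the distance of the hairpin's start from that of miR-431 in kb; points are means over 12 libraries, bars run from the lowest to the highest library, and the arms are drawn slightly apart. miR-127-3p, with a mean of 157588 CPM, is followed by miR-136-3p with a mean of 14824 CPM.

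The order of the 10 levels was set by arm as much as by hairpin. miR-127-3p had a mean of 157588 CPM over the 12 libraries and ranked 1 among the miRs tested. In WT it was at 151610, 149663, 143068, 152320 and 146097 CPM, and in Mir483Pat-KO the lowest, median and highest values were 152488, 166412 and 173909 CPM. The next was miR-136-3p, with 13042, 14045 and 15901 CPM as its lowest, median and highest WT values and 14712, 14930 and 15873 CPM in Mir483Pat-KO. These ranges overlapped. miR-136-5p came next, below miR-136-3p in 8 of 12 libraries, so these neighbours were not ordered in every fetus. miR-434-5p followed at a mean of 7768 CPM and exceeded miR-434-3p, at 4590 CPM, in all 12 libraries. miR-434-3p and miR-431-5p, at 4484 CPM, did not differ beyond their spread, the former being higher in 7 of 12 libraries. Below them were miR-127-5p (913 CPM), miR-433-3p (661 CPM), miR-431-3p (261 CPM) and miR-433-5p (128 CPM), each higher than the next in all 12 libraries.

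**Figure D2:**
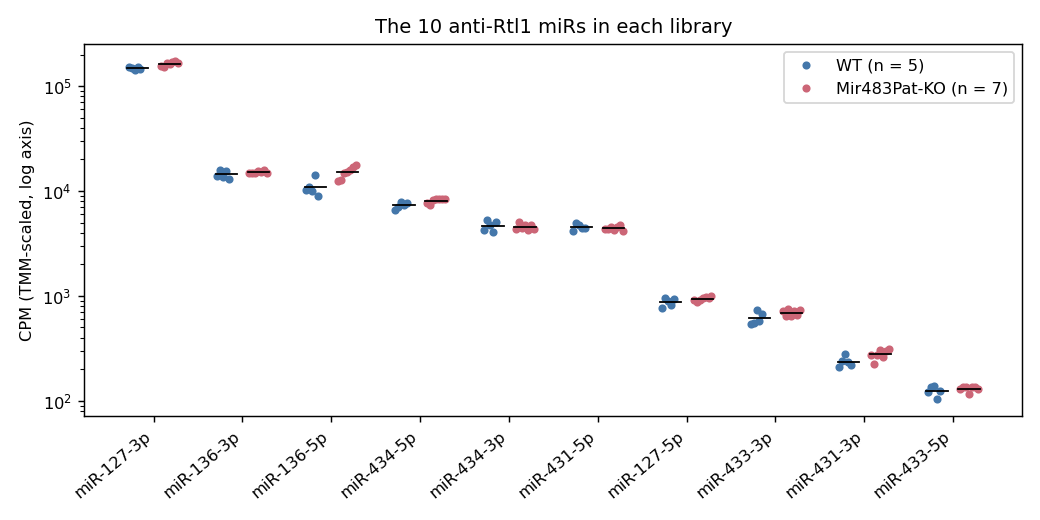
TMM-scaled CPM of each miR in each library on a log axis, with WT in blue, Mir483Pat-KO in red and a black line at each group's mean; miRs are in order of mean level. The levels run from 128 CPM for miR-433-5p to 157588 CPM for miR-127-3p, and within a miR the libraries spread far less than that.

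The comparison of genotypes asked whether loss of Mir483 on the paternal allele went with a change in these miRs. miR-136-5p was higher in Mir483Pat-KO and was the only one of the 10 that passed the test. The paper had already listed miR-136-5p among the miRs raised in these mutant livers, so its call was known beforehand. Of 388 miRs tested, 2.06% were called in either direction and 1.03% were called higher in Mir483Pat-KO, against 1 of 10 here. The called miRs include miR-136-5p itself and, among those lower, both arms of the deleted miR-483. In WT miR-136-5p was at 10304, 10869, 10087, 14083 and 8880 CPM, with replicate 4 the highest. In Mir483Pat-KO the values were 12407, 12801, 15008, 15031, 15800.5, 17039 and 17629 CPM, of which 5 lay above all WT libraries and the other two below WT replicate 4. The mean ± SD was 10844 ± 1950 CPM over the 5 WT libraries and 15102 ± 1966 CPM over the 7 mutant libraries, a log2 fold change of 0.48 (SE 0.11, edgeR quasi-likelihood F-test, adjusted p = 0.0309), and the two-sided exact permutation p of the CPM was 0.00758. With any 1 of 8 libraries left out, WT replicates 1, 2, 3 and 5 and Mir483Pat-KO replicates 4 to 7, the log2 fold change was 0.41 to 0.47 and the edgeR adjusted p 0.0501 to 0.128, so the call was lost.

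The values of miR-136-5p and of several other miRs also followed the index number of the libraries. This relation was looked at after the values were seen, and index order is the same as animal-number order within each genotype. Over the 7 Mir483Pat-KO libraries the log2 level of miR-136-5p correlated with the index number with Pearson's r of 0.973 and Spearman's rho of 1 (exact permutation p = 0.000397 for each, adjusted p = 0.0513 over 388 miRs), and r was 0.940 without the 2 libraries farthest from the median index. The slope was 0.086 log2 units per index number in Mir483Pat-KO and -0.0055 in WT, where 5 libraries are too few for a correlation. The index numbers of the genotypes do not overlap, and a fit with both takes a common slope for the genotypes. It therefore separates them only if that slope holds in both. With index number as a covariate in such a fit, the genotype log2 fold change of miR-136-5p was 0.072 (edgeR adjusted p = 0.988). Among the 4 WT and 4 Mir483Pat-KO fetuses of the lower animal-number range alone it was 0.27 (edgeR adjusted p = 0.498), and the upper range holds 1 WT fetus. The relation was not particular to miR-136-5p. By the exact permutation test 0 of 388 miRs passed the adjusted threshold, but 0.000397 is the smallest p that 7 libraries allow. Its adjusted value here was 0.0513, so the 0 does not tell how strong the relation was. Among the anti-Rtl1 miRs r was 0.895 for miR-127-5p, 0.818 for miR-127-3p and 0.803 for miR-434-5p. Outside them, in miRs named after their values were seen, it was 0.971 for miR-300-3p, 0.992 for miR-758-3p and 0.976 for miR-381-3p, and the hepatocyte miR-122-5p went the other way (r = -0.852).

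The other arm of that hairpin, miR-136-3p, averaged 14412 ± 1250 CPM over the WT libraries and 15119 ± 409 CPM over the mutant libraries (mean ± SD), with a log2 fold change of 0.07 (edgeR adjusted p = 0.583). miR-127-3p was higher by 0.14 on the log2 scale (SE 0.040, edgeR adjusted p = 0.0761), with 148552 ± 3902 CPM in WT and 164042 ± 7747 CPM in Mir483Pat-KO. All 7 Mir483Pat-KO libraries lay above all 5 WT libraries in miR-127-3p (two-sided exact permutation p = 0.00253), yet the lowest Mir483Pat-KO value, 152488 CPM, was next to the highest WT value, 152320 CPM. DESeq2, which called 27 of the 281 miRs it gave an adjusted p, called miR-127-3p with an adjusted p of 0.0184. When index number entered the edgeR fit, which separates it from genotype only under a common slope, the log2 fold change of miR-127-3p was 0.040 (adjusted p = 0.980). In the lower animal-number range alone it was 0.081 (edgeR adjusted p = 0.686). With library size alone as the scaling it was 0.075 (edgeR adjusted p = 0.325). miR-434-5p was at 7324 ± 491 CPM in WT and 8085 ± 387 CPM in Mir483Pat-KO (log2 fold change 0.14, edgeR adjusted p = 0.191), and 5 of 7 Mir483Pat-KO libraries lay above all WT libraries. miR-431-3p was at 236 ± 26.5 CPM and 278 ± 30.1 CPM (log2 fold change 0.24, edgeR adjusted p = 0.191). The remaining miRs gave log2 fold changes of 0.11 for miR-127-5p, 0.18 for miR-433-3p, 0.07 for miR-433-5p, -0.05 for miR-431-5p and -0.04 for miR-434-3p, with edgeR adjusted p from 0.275 to 0.854. In all, 8 of the 10 estimates were above 0 and 2 below, with a median of 0.12 beside 0.0028 over all 388 miRs.

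**Figure D3:**
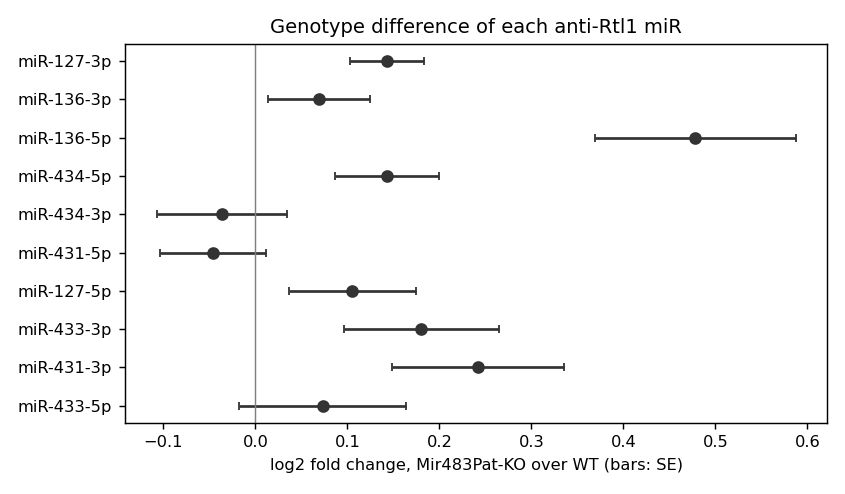
Log2 fold change of Mir483Pat-KO (n = 7) over WT (n = 5) for each miR, with bars of 1 SE, in order of mean level. miR-136-5p at 0.48 lies farthest from 0, and miR-431-5p and miR-434-3p lie below 0.

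Other miRs of the same transcription unit were set beside these. On the Meg3 side of the domain 8 of 11 miRs tested were higher and 3 lower in Mir483Pat-KO, and none was called. In the Rian region all 3 were higher and 1 was called, miR-370-3p (log2 fold change 0.68, edgeR adjusted p = 0.0194). Of the miRs listed for the Mirg region 29 were higher and 19 lower, and 1 was called, miR-154-3p (log2 fold change 0.36, edgeR adjusted p = 0.0426). The list left out miR-666 and the merged entries of miR-299a and miR-299b, which map to this region and were tested. None of these was called. Both called miRs followed the index number within Mir483Pat-KO, with r of 0.934 for miR-370-3p and 0.918 for miR-154-3p. Over the 62 other listed domain miRs tested the median log2 fold change was 0.09. Of the further miRs annotated within Rtl1, miR-432 and miR-3071-5p had no read in any library and miR-3071-3p had 2 reads in 1 library. Summed levels of marker miRs of other cells overlapped between genotypes: white blood cell miRs were at 11343 to 14595 CPM in WT (median 12665) and 13119 to 14813 CPM in Mir483Pat-KO (median 14101). Erythroid miRs were at 23848 to 31974 CPM (median 26510) and 25913 to 37810 CPM (median 32355), and mesenchymal miRs at 30356 to 34341 CPM (median 34138) and 31140 to 36250 CPM (median 32791). Biliary miRs were at 1190.3 to 1996 CPM (median 1576) and 1179 to 1659 CPM (median 1324), and endothelial miRs at 953 to 1261 CPM (median 1120) and 725 to 1221 CPM (median 1008). The medians of erythroid and white blood cell miRs were thus higher, and those of biliary, endothelial and mesenchymal miRs lower, in Mir483Pat-KO. Single markers could go against their sum. The biliary miR-200a-3p averaged 121 CPM in WT and 159 CPM in Mir483Pat-KO, and the mesenchymal miR-199a-3p/199b-3p 1153 and 1597 CPM. Neither was called (edgeR adjusted p = 0.0892 and 0.176), and both were named after their values were seen. The part of cell composition in the differences above was not tested.

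The balance of the arms was then compared, since the arms of a hairpin come from the same precursor and their ratio within a library does not depend on how libraries are scaled. In miR-127 the 3p arm exceeded the 5p arm 155-fold to 199-fold, and in miR-433 4.05-fold to 5.67-fold. In miR-431 it was the 5p arm that was in excess, 13.6-fold to 20.7-fold. miR-434 gave a 5p excess of 1.35-fold to 1.97-fold, and in miR-136 the 3p arm was between 0.835 and 1.47 times the 5p arm. Over the 95 hairpins with both arms tested the median absolute log2 ratio was 2.48, so miR-136 and miR-434 were among the more even hairpins and miR-127 among the less even. Argonaute is known to favour a U at the 5′ end of a miR. The more abundant arm starts with U in miR-127 and miR-431, while in miR-433 and miR-434 it is the less abundant arm that does, and both arms of miR-136 start with A. Over 83 hairpins with both sequences in RefSeq, 48.2% of more abundant arms and 25.3% of less abundant arms started with U.

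The arm ratio of miR-136 differed between genotypes. It uses the same counts of the 5p arm as the level of miR-136-5p, so these results are not independent. Of the 95 hairpins tested, 2.11% were called, against 1 of 5 here. The other hairpin called was miR-154 of the Mirg region, in the same domain, with a difference of 0.70 (limma adjusted p = 0.00815). For miR-136 the log2 ratio of 3p to 5p was 0.45, 0.55, 0.42, 0.14 and 0.55 in WT and 0.27, 0.21, -0.016, 0.035, -0.054, -0.10 and -0.26 in Mir483Pat-KO. Thus 5 of 7 Mir483Pat-KO libraries lay below all WT libraries, and WT replicate 4 lay below 2 of the Mir483Pat-KO libraries. The means were 0.42 ± 0.17 (SD, n = 5) and 0.012 ± 0.18 (SD, n = 7), a difference of -0.41 (SE 0.096, limma adjusted p = 0.0324), with a two-sided exact permutation p of 0.00631. As a share of the counts of both arms, the 5p arm took 40.5% to 47.6% in WT and 45.4% to 54.5% in Mir483Pat-KO, and the exact 95% binomial interval of a single library was at most ± 0.737 percentage points. With any 1 of 9 libraries left out, WT replicates 1, 2, 3 and 5 and Mir483Pat-KO replicates 3 to 7, the difference was -0.42 to -0.37 and the limma adjusted p 0.0554 to 0.109, so the call was lost. Without a trend in the limma prior the adjusted p was 0.127.

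The arm ratio of miR-136 followed the index number as its 5p arm did. Over the 7 Mir483Pat-KO libraries r was -0.955 and rho -0.964 (exact permutation p = 0.00159 and 0.00278, adjusted p = 0.0754 and 0.0880 over 95 hairpins), and r was -0.870 without the 2 libraries farthest from the median index. When index number entered the fit, which separates it from genotype only under a common slope, the genotype difference was -0.025. In the lower animal-number range alone it was -0.27 (limma adjusted p = 0.230).

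**Figure D4:**
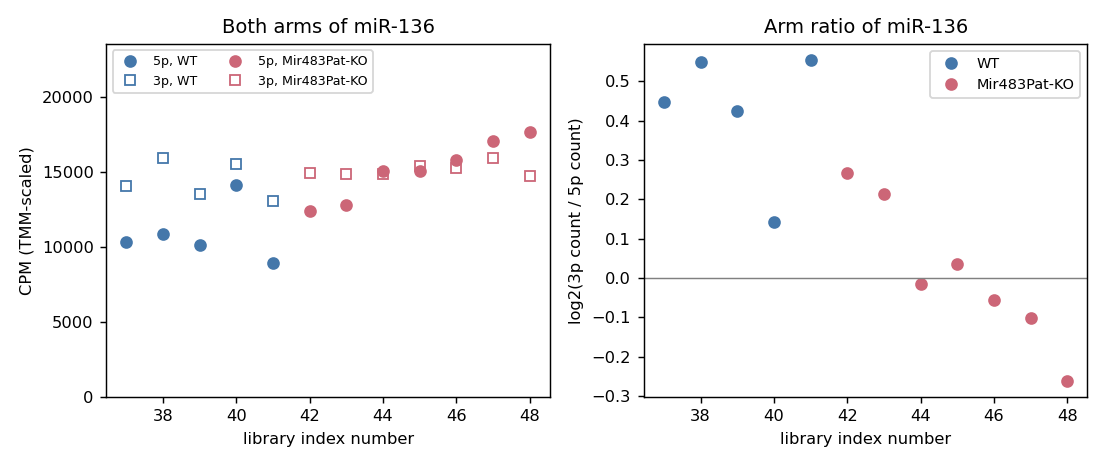
Left, TMM-scaled CPM of miR-136-5p (filled circles) and miR-136-3p (open squares) against library index number; right, log2 ratio of the 3p to the 5p count; WT is blue and Mir483Pat-KO red. The 5p arm is at 8880 to 14083 CPM in WT and 12407 to 17629 CPM in Mir483Pat-KO, while the 3p arm stays between 13042 and 15901 CPM.

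In the other hairpins the difference in ratio did not pass the adjusted threshold. The log2 ratio of 3p to 5p of miR-431 averaged -4.27 ± 0.11 over the WT and -3.99 ± 0.18 over the mutant libraries (mean ± SD), a difference of 0.28 (SE 0.095, limma adjusted p = 0.113, two-sided exact permutation p = 0.0152 before adjustment), with 5 of 7 Mir483Pat-KO libraries above all WT libraries. miR-434 gave -0.66 ± 0.15 and -0.83 ± 0.13, a difference of -0.18 (limma adjusted p = 0.225). For miR-433 the difference was 0.11 (limma adjusted p = 0.665) and for miR-127 it was 0.034 (limma adjusted p = 0.879).

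**Figure D5:**
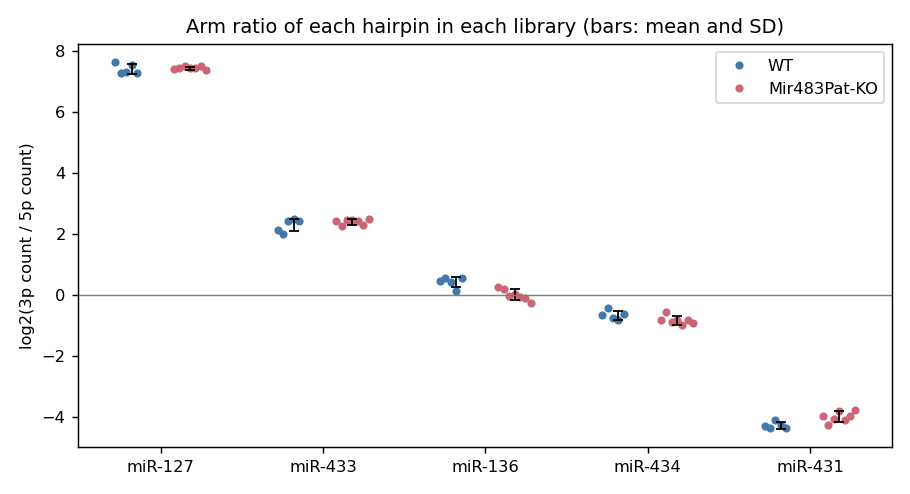
Log2 of the 3p over the 5p count for each hairpin in each library, WT in blue and Mir483Pat-KO in red, with black bars at the mean and SD; the grey line marks equal arms. miR-127 lies near 7.43 and miR-431 near -4.11, and in miR-136 the Mir483Pat-KO libraries lie around the line of equal arms.

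Finally, the miRs were compared in how they varied from fetus to fetus, as deviations of log2 CPM from the genotype's mean in 12 libraries. Over these 12 deviations the arms of miR-136 had the highest correlation of the 5 hairpins, with Pearson's r of 0.607 and Spearman's rho of 0.517 (permutation p = 0.0455 and 0.106, adjusted p = 0.354 and 0.510 over 95 hairpins), and r was 0.555 without the 2 libraries farthest from the median. For miR-431, miR-433, miR-127 and miR-434 r was 0.356, 0.353, 0.133 and 0.071, with permutation p adjusted over 95 hairpins from 0.782 to 0.937. Without the 2 farthest libraries their r was 0.231, 0.145, -0.262 and 0.204. The order of the hairpins did not hold in Mir483Pat-KO alone, where over 7 libraries r was 0.753 for miR-127, 0.448 for miR-433, 0.344 for miR-136, -0.023 for miR-431 and -0.43 for miR-434. Nor did it hold with library size alone as the scaling, where miR-127 was at 0.589 and miR-136 at 0.545. None of the 5 passed, and 2.11% of the 95 hairpins did. Across hairpins, the 40 pairs of anti-Rtl1 miRs had a median r of 0.248, with 27 above 0, beside a median of -0.0016 over all pairs of miRs tested. They ran from -0.62 for miR-136-3p with miR-433-3p to 0.76 for miR-127-3p with miR-136-5p. These correlations share the same libraries and scaling and are given as a description. The miRs of at least 50 CPM whose deviations were most like the mean of the 10 were miR-300-3p (r = 0.828), of the Mirg region, miR-18a-5p (r = 0.783), from outside the domain, and miR-341-3p (r = 0.751), of the Rian region, over 12 libraries. Among 229 such miRs the median r was 0.442 for 47 on the domain list and -0.133 for the other 182, which include miR-666-5p, a domain miR not on the list.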

How the data were processed

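Small RNA libraries (TruSeq Small RNA kit) were made from total RNA of E18.5 livers, and the authors aligned and counted the reads with miRge. The deposited values are raw counts for each mature miR in each library. The genome build in the submitters' processing notes is GRCm38; the miR reference and adapter trimming are not given in the sources used here. Genotypes and replicate numbers came from the labels.

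Counts were filtered with filterByExpr (minimum count 10, minimum total 15), TMM-scaled, and compared with edgeR 4.0.16 (R 4.3.3) (glmQLFit, glmQLFTest), with p-values adjusted by Benjamini-Hochberg over all miRs tested; calls were made at 0.05. Arm ratios, log2 of (3p + 0.5) over (5p + 0.5), were compared with limma 3.58.1 over all hairpins with both arms tested. Correlations used log2 CPM (prior count 2) and 100000 permutations within genotype. Correlations with index number over 7 libraries used exact permutation. Code was tested on simulated data. The 10 miRs were named in full, with both arms of miR-483, miR-122-5p, the 3 miRs of at least 50 CPM most like them, and domain miRs that were called. The miRs and lists were chosen with earlier results of these data known. Alternatives were other scalings and filters, DESeq2 1.42.0, limma-voom, pseudocounts, covariates and each library left out. The fetuses that share a replicate number are different animals, and the deviations of same-numbered libraries correlated at -0.24 to 0.23.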

Additional observations from a re-analysis of the deposited data

Results flagged for a closer look

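Among 30 sets of values (10 levels and 5 arm ratios in each genotype), 2 held a library that stood apart from the rest of its genotype by Dixon's criterion, which chance gives in about 1 set in 20. miR-433-5p was at 117 CPM in Mir483Pat-KO replicate 4, below the next lowest library at 129 CPM. The log2 ratio of 3p to 5p of miR-434 was -0.56 in Mir483Pat-KO replicate 2, above the next highest at -0.82. Neither value belongs to a result that passed its test.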

How the results depend on the processing

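miR-136-5p was called under all other scalings and filters tried, edgeR's newer dispersion, DESeq2 and limma-voom. It was not with the animal-number range as a factor (log2 fold change 0.45), in the lower range alone (0.27) or with index number as covariate (0.072). Of the 10 anti-Rtl1 miRs, 0 were called under each of these, 2 with DESeq2 and 2 at an adjusted p under 0.1. Leaving out each library in turn gave a log2 fold change of miR-136-5p of 0.41 to 0.59 and 0 to 1 of the 10 called. The arm ratio difference of miR-136 was -0.41 without a limma trend, -0.38 with the range as a factor, -0.27 in the lower range and -0.025 with the index covariate, with 0 of the 5 anti-Rtl1 hairpins called in each; leaving out each library gave -0.48 to -0.37 and 0 to 1 of the 5 called. Signs turned with the index covariate for miR-127-5p (-0.077), miR-434-5p (-0.048) and the arm ratios of miR-433 (-0.091) and miR-434 (0.023), and in the lower range for miR-434-3p (0.0010). The index numbers did not overlap between genotypes, and the fit with this covariate took a common slope for both genotypes. The cause of the turned signs was not tested. In Mir483Pat-KO alone the arm correlation was -0.023 for miR-431, -0.43 for miR-434, 0.753 for miR-127 and 0.344 for miR-136, and with each library left out it was -0.25 to 0.38 for miR-434 and -0.10 to 0.34 for miR-127. No correlation was computed in WT alone, which has 5 libraries. With the 2 most abundant miRs, miR-127-3p and miR-122-5p, removed, the anti-Rtl1 miRs other than miR-127-3p took 6.67% of the counts left. Without miR-122-5p alone the 10 took 23.7%.

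With the replicate number as a block, the log2 fold change of miR-136-5p was 0.40 (edgeR adjusted p = 0.166), the arm ratio difference of miR-136 was -0.33 (limma adjusted p = 0.188), and 0 of the 10 anti-Rtl1 miRs and 0 of the 5 hairpins were called. Deviations of same-numbered libraries correlated at -0.24 to 0.23. This cannot show whether the number stands for a shared litter or batch, and the labels do not say.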
